A study of Mus musculus with 90 samples.

Results

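The genes described are the potassium channel genes of the mouse, taken as every array probe whose platform gene symbol begins with Kcn, with 1 symbol left out. The rule gave 90 of the 25697 probes, for 64 genes in 20 subfamilies from Kcna to Kcnv. Of these, 49 genes had a probe detected on enough arrays to be tested, among 9741 tested genes in all. Detection required a p-value below 0.01 for the probe against the background of its array, and a gene was tested if at least 9 of the 90 arrays, the size of the smallest group, detected it. The other 15 genes (Kcna10, Kcnd1, Kcne1, Kcnh6, Kcnj15, Kcnj2, Kcnj5, Kcnk10, Kcnk5, Kcnmb1, Kcnmb2, Kcnn3, Kcnn4, Kcnq1 and Kcnrg) were detected on at most 8 arrays, and 6 of them on none. Of the tested genes, 33 were detected on all 90 arrays and 6 on fewer than 45.

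The tissue came from APP/PS1 mice, which carry human APP and PS1 transgenes and develop amyloid plaques. All groups share this genotype, so no non-transgenic brain was compared. Antisense oligonucleotides (ASOs, synthetic strands that lower the RNA they match) were pumped into the right lateral ventricle at 40 µg in 6 µL each day. The animals received a CD33-specific ASO or a control ASO without a target. Dosing began at 18 weeks of age and went on for 14 or 28 days, and the left hippocampus and the left frontal cortex, cut off at a single plane, were collected at 22 weeks. Animals dosed for 14 days had the pump taken out and those dosed for 28 days had it exchanged, so the durations also differ in the time from the end of dosing to collection. Hippocampal arrays numbered 9 with the control ASO and 9 with the CD33 ASO at 14 days, and 13 and 13 at 28 days. Cortical arrays numbered 9, 9, 14 and 14 in the same order. Arrays of 1 group came from different animals, and 43 of the 47 animals gave both tissues.

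Potassium channels let potassium leave or enter the cell and so set the resting potential, end the action potential and space the firing of neurons. Voltage-gated channels (Kcna, Kcnc, Kcnd, Kcnh, Kcnq and relatives) open on depolarization, inward rectifiers (Kcnj) hold the membrane near rest, tandem-pore channels (Kcnk) carry leak current, and calcium- or sodium-activated channels (Kcnma, Kcnn, Kcnt) shape the potential after a spike. Further members are subunits that form no pore of their own, such as the Kcnab, Kcnip, Kcne and Kcnmb proteins. In the forebrain they differ by region and by cell type, and glia use inward rectifiers to buffer potassium released by neurons.

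Each array had 42.8% to 51.6% of its probes detected, and the median signal per array lay between 28.4 and 47.0. Values below are log2 intensities after background correction and normalization of all 90 arrays together, and a difference of 1 is a doubling. They can be compared between arrays for 1 gene but not between genes, since probes differ in brightness. The labelled tissues were checked with marker genes. Of 5 tested markers of hippocampal neurons 4 were lower in the cortical pieces, and of 7 neocortical markers 5 were higher there. All 8 tested markers of striatal neurons were higher in the cortical pieces too, by a median of 2.45, with a mean over the list of 9.52 to 10.6 per cortical array against 7.35 to 7.70 per hippocampal array. All 7 microglial markers were higher in cortex (median 0.61), and all 8 choroid plexus markers were higher in hippocampus (median of cortex minus hippocampus -2.06). The part of these other cells in the tissue differences of channel genes was not tested, and in tissue RNA more cells of a type and more RNA per cell cannot be told apart. Cd33, the ASO target, was lower with the CD33 ASO in hippocampus at 14 and 28 days (limma adjusted p = 2.8e-05 and 5.48e-09), where 2 of 9 and 1 of 13 CD33 ASO arrays detected it against all control arrays, so no size is given. In cortex it differed by -0.90 at 28 days (adjusted p = 5.08e-05) and by -0.69 at 14 days, a value short of the threshold (adjusted p = 0.33). Among the CD33 ASO arrays, 1 hippocampal and 4 cortical ones lay at or above the lowest control array of their tissue and duration. They came from 4 animals, 1 of which was in range in both tissues.

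Frontal cortex and hippocampus differed in most potassium channel genes, and of the 8 subfamilies with several passing genes, 4 held genes of both directions and 4 of a single direction. Averaged over the 4 combinations of ASO and duration, 37 of 49 genes passed an adjusted p of 0.05 in limma, 23 higher in cortex and 14 higher in hippocampus. Over all tested genes 74.3% passed, 34.4% higher and 40.0% lower in cortex, so the 75.5% among channel genes is near the share of all genes. The sizes were larger among channel genes, with a median absolute difference of 0.28 against 0.16 over all tested genes. Of the 49 genes, 14 were over 0.5 higher in cortex, as were 8.76% of all genes, and 3 were over 0.5 higher in hippocampus, as were 5.68%. These sizes were chosen after the values were seen. These counts and the 37 include Kcna5, Kcnh5 and Kcne2, each tested only through the tissue where it was higher. The direction of those genes was set by the filter. The signed median was 0.04 for the channel genes and -0.02 for all genes.

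**Figure D1:**
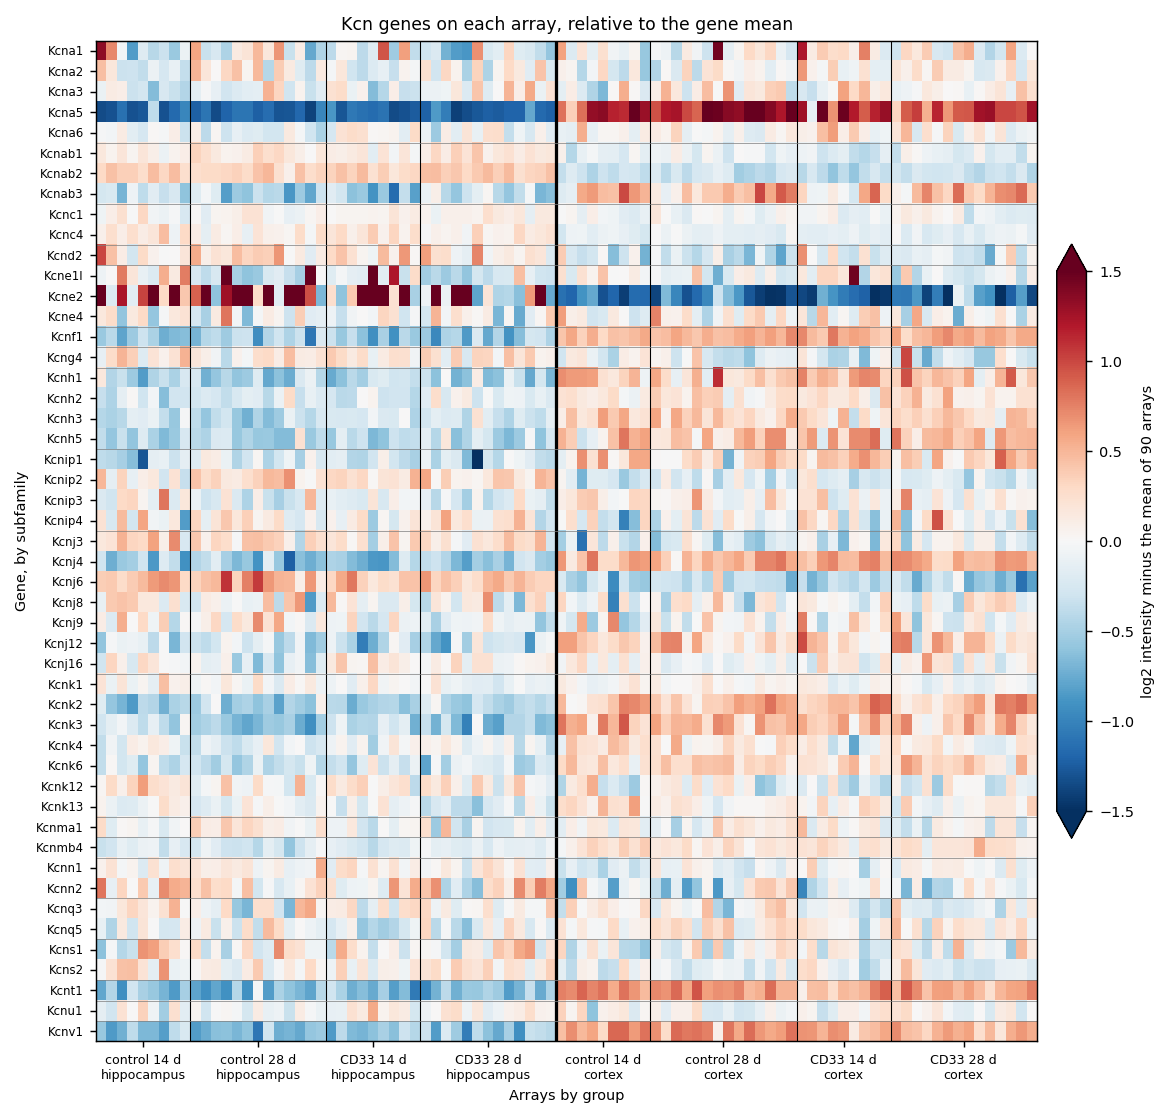
Each column is 1 of the 90 arrays, grouped by tissue, ASO and duration, and each row is 1 of the 49 tested Kcn genes, ordered by subfamily. Colour gives the log2 intensity minus the mean of that gene over all arrays, with values beyond 1.5 shown in the end colours. Kcna5, Kcnf1, Kcnj4, Kcnt1 and Kcnv1 change colour at the heavy line between hippocampus and cortex, Kcne2 varies among the hippocampal arrays, and no row changes colour as plainly at the thin lines between ASO groups.

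The arrays of the tissues did not overlap at all for 6 genes, against 3.44% of all tested genes. Kcna5, Kcnf1, Kcnj4, Kcnt1 and Kcnv1 were higher on every cortical array than on any hippocampal array (5 of 49, against 1.62% of all genes), and Kcnab2 the reverse (1 of 49, against 1.82%). Among them was Kcna5, a delayed rectifier channel best known from atrial and vascular muscle. It was tested only because cortical arrays detected it, so its direction was set by the filter, as was its side in these counts. Kcna5 lay at 4.55, 4.74 and 5.57 (lowest, median and highest) over the 44 hippocampal arrays, none of which detected it, and at 5.83, 7.12 and 7.91 over the 46 cortical arrays, of which 45 did. Cortex was therefore at least 2.22-fold higher, a bound set by the dimmest detected probe on each hippocampal array (limma adjusted p = 3.29e-54).

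Kcna5 stands on chromosome 6 next to Kcna1 and Kcna6, with no other protein-coding gene between them in the reference annotation. The neighbours differed far less between tissues, with cortex higher by 0.20 ± 0.09 in Kcna1 and by 0.13 ± 0.04 in Kcna6 (limma adjusted p = 0.036 and 0.0038). Kcna1 and Kcna6 encode voltage-gated channels of axons. Kcna2, of the same axonal group on chromosome 3, differed by 0.04 ± 0.05 (adjusted p = 0.53). Kcna1 reached 6.46, 7.11 and 8.68 in hippocampus and 6.77, 7.37 and 8.78 in cortex, so its arrays overlap over nearly the whole range. The promoters of Kcna5, Kcna6, Kcnf1 and Kcnj4 are shown because Kcna5 and its neighbour differ so much in tissue difference, and because Kcna5, Kcnf1 and Kcnj4 are the separated genes with a single start in the RefSeq promoter table of GRCm38.p6. Each line holds the 250 bases before the start, 5′ to 3′ on the gene's strand. Capitals mark GGGCGG or its reverse complement CCGCCC, a GC box.
Kcna5: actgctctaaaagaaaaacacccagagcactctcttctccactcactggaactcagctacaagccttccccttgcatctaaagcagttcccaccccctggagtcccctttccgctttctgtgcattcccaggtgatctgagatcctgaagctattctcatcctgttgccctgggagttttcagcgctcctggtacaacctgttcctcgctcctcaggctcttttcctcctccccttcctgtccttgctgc
Kcna6: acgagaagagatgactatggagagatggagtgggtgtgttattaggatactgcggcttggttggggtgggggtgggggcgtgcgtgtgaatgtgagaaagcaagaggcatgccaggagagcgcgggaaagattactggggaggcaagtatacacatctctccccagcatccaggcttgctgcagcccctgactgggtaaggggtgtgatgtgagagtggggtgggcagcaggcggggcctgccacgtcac
Kcnf1: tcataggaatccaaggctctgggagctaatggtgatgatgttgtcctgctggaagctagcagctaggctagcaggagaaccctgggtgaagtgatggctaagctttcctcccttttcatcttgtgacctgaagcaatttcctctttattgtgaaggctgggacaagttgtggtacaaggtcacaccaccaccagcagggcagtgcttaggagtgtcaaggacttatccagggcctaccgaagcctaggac
Kcnj4: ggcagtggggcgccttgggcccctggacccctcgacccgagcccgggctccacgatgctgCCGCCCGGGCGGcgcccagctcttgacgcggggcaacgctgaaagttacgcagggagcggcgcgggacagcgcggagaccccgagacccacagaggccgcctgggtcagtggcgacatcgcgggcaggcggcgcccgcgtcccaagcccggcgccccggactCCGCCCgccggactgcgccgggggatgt
These windows lie at chr6:126535556-126535805, chr6:126740675-126740924, chr12:17176889-17177138 and chr15:79505242-79505491, all on the minus strand. The Kcnj4 window holds 35 CG dinucleotides and 3 GC boxes over both strands, of which the first pair adjoin in opposite orientation. The windows of Kcna5, Kcna6 and Kcnf1 hold 3, 8 and 1 CG dinucleotides and no GC box, so the 4 genes shown do not share these features. A GC box occurs in 30 of the 70 windows of channel genes (42.9%) and in 32.7% of all 32851 windows of the table. TATAAA on either strand occurs in 2 of the 70 windows and in 12.4% of all, and in none of the 4 shown. A match describes the letters only.

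Among the voltage-gated genes, Kcnh1, Kcnh2 and Kcnh3, relatives of ether-a-go-go detected on all arrays of both tissues, were higher in cortex. Kcnh1 (EAG channel) lay at 7.99, 8.40 and 8.99 in hippocampus and at 8.68, 9.25 and 9.94 in cortex, a difference of 0.84 ± 0.05 (limma adjusted p = 2.94e-26). Its ranges overlap only where the highest hippocampal arrays meet the lowest cortical ones. Kcnh3 (an ELK channel) was higher in cortex by 0.57 ± 0.04 and Kcnh2 (ERG channel) by 0.38 ± 0.03. Kcnh5, a second EAG channel, was detected on 27 of 46 cortical arrays and none of 44 hippocampal arrays. It was tested only because cortical arrays detected it, so its direction was set by the filter and adds nothing to the others. Its level was too close to the detection limit for a fold to be given (adjusted p = 5.90e-24).

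The silent subunits, which open no channel alone and modify Kv2 channels, split by gene. Kcnv1 lay at 8.07, 8.53 and 8.94 in hippocampus and at 9.22, 9.74 and 10.0 in cortex, 2.26-fold higher in cortex (1.17 ± 0.04, limma adjusted p = 1.00e-44). Kcnf1 lay at 9.83, 10.4 and 10.7 in hippocampus and at 11.2, 11.4 and 11.7 in cortex, 2.09-fold higher in cortex (1.06 ± 0.04, adjusted p = 1.15e-44). Both genes separate the tissues on every array. Kcns2 and Kcng4, of the same kind of subunit, were instead higher in hippocampus, by 0.23 ± 0.04 and 0.32 ± 0.05, with overlapping arrays. Kcns1, another Kv2 modifier, was detected on 11 of 44 hippocampal and 10 of 46 cortical arrays, and its difference of -0.10 did not pass (adjusted p = 0.18).

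Genes of the A-type channel complex, in which a Kv4 pore carries KChIP (Kcnip) and DPP-like subunits and acts in dendrites, divided between the tissues by subunit. The pore gene Kcnd2 was higher in hippocampus by 0.40 ± 0.06 (limma adjusted p = 1.06e-09), with 8.14, 8.59 and 9.42 there and 7.63, 8.17 and 9.10 in cortex. Kcnip2 was also higher in hippocampus, by 0.42 ± 0.04 (adjusted p = 9.25e-16). The partner gene Dpp6 showed the same direction (0.69 ± 0.02 higher in hippocampus). Kcnip1 went the other way, with 5.79, 7.01 and 7.43 in hippocampus and 6.58, 7.64 and 8.18 in cortex, a difference of 0.62 ± 0.06 (adjusted p = 4.47e-16). Dpp10, the other DPP-like partner, was higher in cortex by 1.28 ± 0.03. Kcnip3, which encodes the KChIP also known as DREAM, was higher in cortex by 0.19 ± 0.05, and Kcnip4 differed by -0.10 ± 0.07 (adjusted p = 0.16).

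The Kcnab genes, whose products bind the inner face of Kcna channels, divided likewise. Kcnab2 lay at 13.4, 13.6 and 13.8 in hippocampus and at 12.7, 13.0 and 13.2 in cortex. It was 1.60-fold higher in hippocampus (0.68 ± 0.02 on the log2 scale, limma adjusted p = 1.07e-49), with no overlap of the tissues. Kcnab1 was higher in hippocampus by 0.28 ± 0.03, and its other 2 probes by 0.46 and 0.32. Kcnab3 was higher in cortex by 0.82 ± 0.06, at 6.99, 7.75 and 8.23 in hippocampus and 7.87, 8.58 and 9.14 in cortex (adjusted p = 4.95e-22). The voltage-gated channel genes Kcnc1 and Kcnc4 were both higher in hippocampus, by 0.10 ± 0.02 and 0.27 ± 0.02. Of the Kcnq genes, which carry the M current, Kcnq5 was higher in cortex by 0.22 ± 0.05 (adjusted p = 1.52e-05) and Kcnq3 differed by -0.11 ± 0.06 (adjusted p = 0.066).

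**Figure D2:**
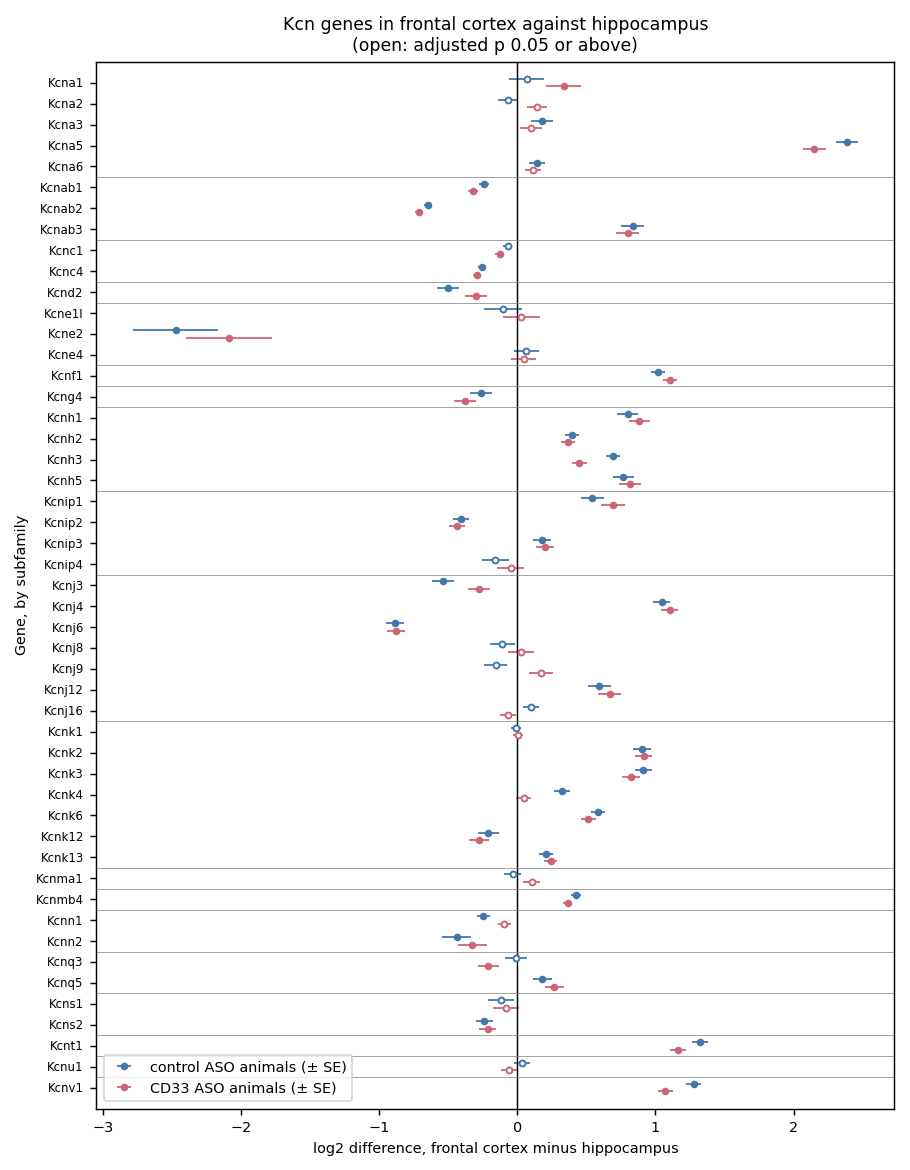
The horizontal axis is the log2 difference of frontal cortex minus hippocampus, with its SE, for each of the 49 tested Kcn genes on the vertical axis, blue in control ASO animals and red in CD33 ASO animals. Filled points passed an adjusted p of 0.05. The colours lie close together for most genes. Kcne2 and Kcna5 lie at the ends, but the size of their difference is uncertain because Kcne2 was detected on 2 of 46 cortical arrays and Kcna5 on 0 of 44 hippocampal arrays.

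The inward rectifiers also divided by type. Kcnj4 and Kcnj12, which encode strong rectifiers of the Kir2 group, were higher in cortex. Kcnj4 lay at 8.88, 9.57 and 9.96 in hippocampus and at 10.1, 10.6 and 10.9 in cortex, 2.10-fold higher (1.07 ± 0.04, limma adjusted p = 1.22e-39). Kcnj12 was higher by 0.63 ± 0.06 and was detected on 31 of 44 hippocampal and all 46 cortical arrays. Kcnj6 and Kcnj3, whose products join as the G-protein-gated channel opened by GABA-B and other receptors, were higher in hippocampus. Kcnj6 lay at 7.28, 7.60 and 8.28 in hippocampus and at 6.08, 6.82 and 7.57 in cortex, 1.84-fold higher in hippocampus (0.88 ± 0.05, adjusted p = 1.22e-31). The ranges overlap only at their ends. Its other 2 probes, detected on 33 and 77 arrays, were higher in hippocampus by 0.77 and 0.52. The dimmer one, at 0.77, was kept only because hippocampal arrays detected it, so its direction was set by the filter. Kcnj3 was higher by 0.41 ± 0.06 (adjusted p = 1.40e-09). Kcnj9, another G-protein-gated subunit, was detected on 3 hippocampal and 7 cortical arrays and differed by 0.01 ± 0.06 (adjusted p = 0.91). Kcnj8, the pore of vascular ATP-sensitive channels, and Kcnj16, a glial and epithelial subunit, differed by -0.04 ± 0.07 and 0.02 ± 0.04 (adjusted p = 0.58 and 0.74).

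Of the tandem-pore genes, 5 of 7 tested were higher in cortex and 1 in hippocampus, against 34.4% and 40.0% of all genes. Kcnk2 (TREK channel, gated by stretch and lipids) lay at 8.99, 9.37 and 9.92 in hippocampus and at 9.83, 10.3 and 10.7 in cortex, a difference of 0.91 ± 0.04 (limma adjusted p = 3.47e-33). Kcnk3 (TASK channel, acid-sensitive) lay at 6.11, 6.67 and 7.16 in hippocampus and at 7.04, 7.56 and 8.06 in cortex, a difference of 0.87 ± 0.05 (adjusted p = 2.39e-31). In both genes the ranges touch only at their ends. Kcnk6 was higher in cortex by 0.55 ± 0.04. Kcnk13, the channel behind the resting potassium current of mouse microglia, was higher by 0.22 ± 0.03, beside the microglial markers given above. Kcnk12 was higher in hippocampus by 0.24 ± 0.05, and Kcnk1, a weak inward rectifier of the same family, differed by -0.00 ± 0.03 (adjusted p = 0.97). Kcnk4 was higher in cortex by 0.18 ± 0.04 on its brightest probe, which all 90 arrays detected. Its other 2 probes, detected on only 24 and 14 arrays, gave -0.25 and 0.10 (adjusted p = 0.00047 and 0.20), values close to background that differ in sign. In the other 8 genes with several kept probes every probe passed in 1 direction. Among them 1 Kcnj6 probe and 1 Kcnk2 probe, detected on 33 and 21 arrays, were kept only through the tissue where they were higher. The direction of those probes was set by the filter.

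Kcnt1, a sodium-activated channel, was 2.37-fold higher in cortex (1.24 ± 0.04, limma adjusted p = 5.04e-46), with 6.64, 7.03 and 7.68 in hippocampus and 7.78, 8.32 and 8.64 in cortex. Its tissues did not overlap. Kcnu1, a relative known from sperm, differed by -0.01 ± 0.04 (adjusted p = 0.76). Among the calcium-activated channels, the small-conductance genes Kcnn1 and Kcnn2 were higher in hippocampus, by 0.17 ± 0.03 and 0.38 ± 0.07. The large-conductance pore gene Kcnma1 differed by 0.04 ± 0.04 (adjusted p = 0.45), while its neuronal accessory subunit Kcnmb4 was higher in cortex by 0.39 ± 0.02 (adjusted p = 1.06e-26).

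**Figure D3:**
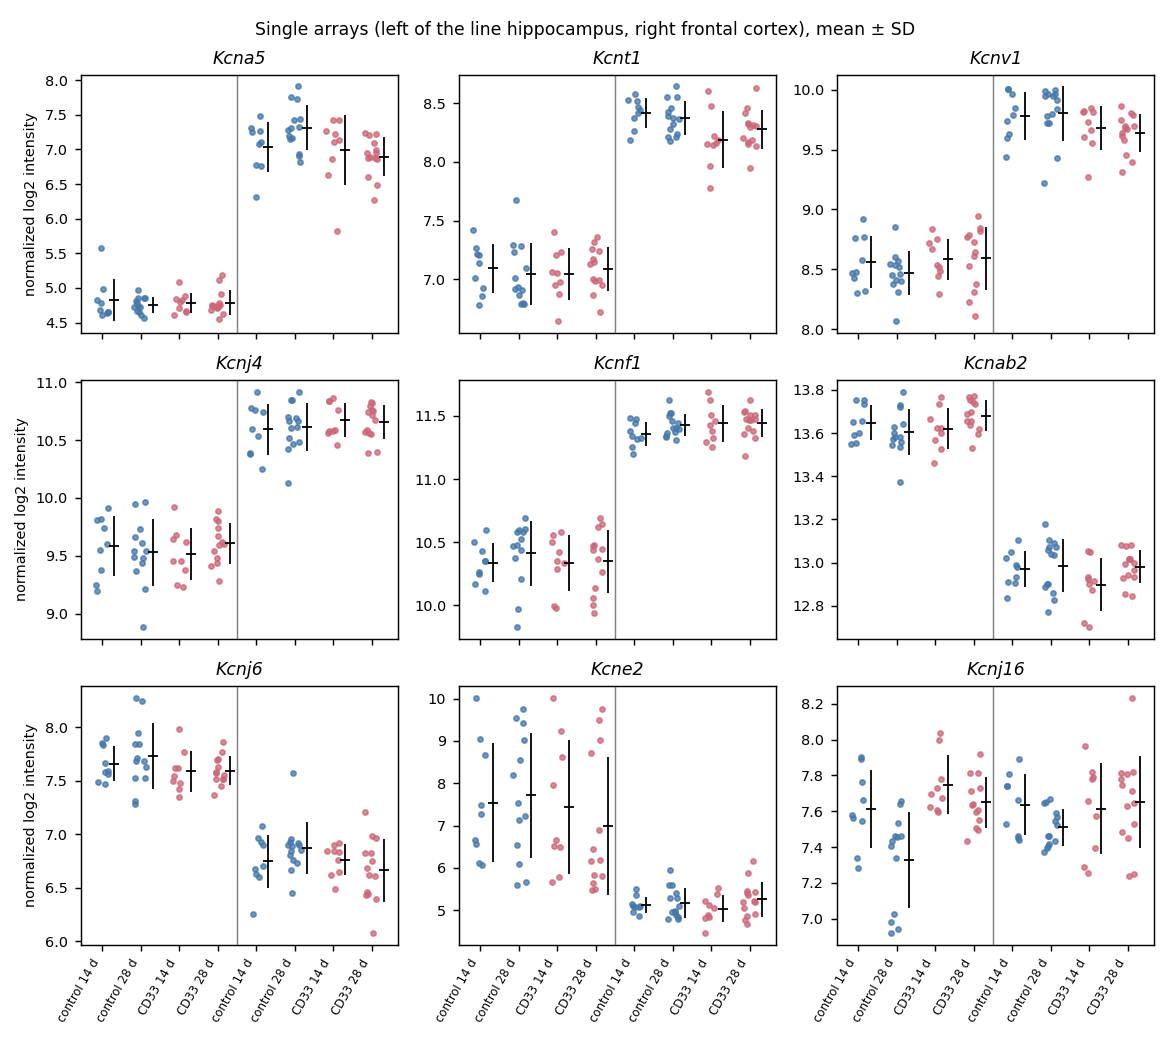
Each point is the normalized log2 intensity of 1 array in 1 of the 8 groups, hippocampus left and frontal cortex right of the line, control ASO in blue and CD33 ASO in red, with the mean and SD of each group in black. The cortical arrays of Kcna5, Kcnt1, Kcnv1, Kcnj4 and Kcnf1 all lie above the hippocampal ones and those of Kcnab2 all below. Kcne2 spans 5.47 to 10.0 in hippocampus, and Kcnj16 has low arrays in the 28-day control hippocampus.

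Kcne2, an accessory subunit abundant in choroid plexus epithelium, was higher in hippocampus (limma adjusted p = 5.67e-16). It was detected on 35 of 44 hippocampal and 2 of 46 cortical arrays, so its cortical level is close to the detection limit and no fold is given. Kcne2 was tested only because hippocampal arrays detected it, so its direction was set by the filter. Hippocampal arrays spread widely, at 5.47, 7.02 and 10.0, while cortical arrays lay at 4.47, 5.10 and 6.17, so the tissues overlap in the lower part of the hippocampal range. The mean of 8 choroid plexus markers ran from 6.67 to 10.8 on hippocampal arrays and from 5.68 to 6.51 on cortical arrays. Of the 22 hippocampal arrays above the Kcne2 median, 21 were also above the median of the choroid plexus mean, as was 1 of the other 22. The part of choroid plexus in the Kcne2 difference was not tested further. The remaining tested Kcne genes did not pass, Kcne1l at -0.04 ± 0.10 and Kcne4 at 0.06 ± 0.07 (adjusted p = 0.74 and 0.44).

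**Figure D4:**
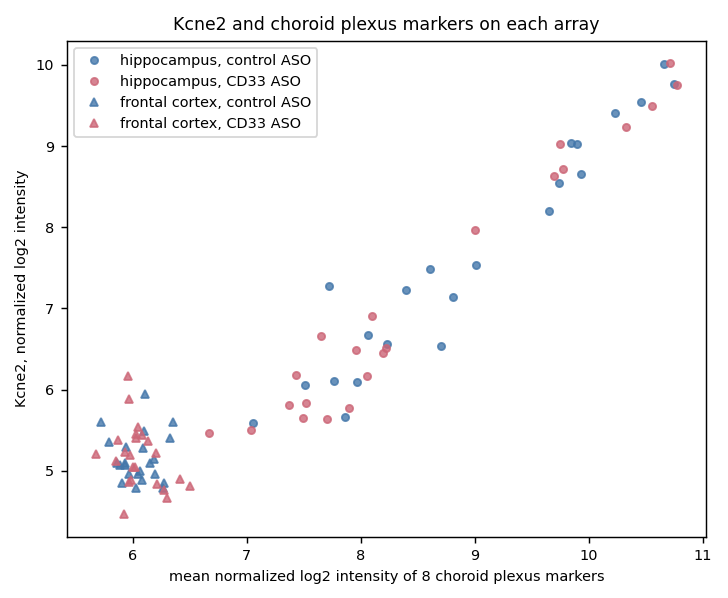
The horizontal axis is the mean normalized log2 intensity of 8 choroid plexus markers on an array and the vertical axis that of Kcne2, with circles for hippocampal and triangles for cortical arrays, blue for control and red for CD33 ASO. Hippocampal arrays rise together from 6.67 to 10.8 on the horizontal axis, and cortical arrays stay between 5.68 and 6.51 with Kcne2 at or below 6.17.

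The tissue pattern was measured apart in animals given each ASO, which share no animal. With the control ASO 35 of 49 genes passed (65.3% of all genes), 22 higher and 13 lower in cortex, against 30.7% and 34.6% of all genes. With the CD33 ASO 34 passed (63.8% of all genes), 20 higher and 14 lower, against 29.7% and 34.1% of all genes. The lists had 31 genes in common in the same direction, 88.6% of the first and 91.2% of the second. Over all tested genes 55.7% passed with each ASO in the same direction, 85.3% of the first list and 87.3% of the second, so the channel genes lie near those shares. Of the 37 genes passing on average, 35 had the same sign in all 4 groups and 23 passed in all 4, against 94.1% and 46.1% of all genes passing on average. The exceptions in sign were Kcna3, which ranged from -0.04 to 0.24, and Kcnk4, from -0.03 to 0.33. Kcna3, known from lymphocytes and microglia, was detected on 4 hippocampal and 15 cortical arrays. Hippocampal arrays alone would not have passed it, so its direction on average was not independent of the filter. Each array chip held 1 tissue only, so tissue and any difference between the sets of chips cannot be told apart. The fits below allow for scatter among chips of 1 tissue only. With chip as a random block 35 of 49 genes passed (65.6% of all genes), and with 1 mean per chip and 6 chips per tissue 36 passed (61.8% of all genes).

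Other genes of membrane excitability and of channel assembly were counted in the same comparison, in which 34.4% of all genes were higher in cortex and 40.0% in hippocampus. Over the 5 lists, 19 of 46 tested genes were higher in cortex and 19 in hippocampus, near those shares. Of 19 tested channel partners 8 were higher in cortex, among them Cntnap2, which clusters Kcna channels on axons (0.53 ± 0.04), and 6 higher in hippocampus, among them Lgi1, a secreted partner of Kcna complexes (0.66 ± 0.02 higher there). The median of this list was 0.07. Both tested HCN genes, Hcn2 and Hcn3, were higher in cortex, by 0.35 ± 0.03 and 0.28 ± 0.04. Of 7 tested genes of potassium uptake and transport, 2 were higher in cortex, with the neuronal cotransporter gene Slc12a5 at 1.01 ± 0.10, and 5 in hippocampus, with the sodium pump subunit Atp1b1 at 0.23 ± 0.02 (median of the list -0.18). Among 5 tested sodium channel genes 3 were higher in cortex and 2 in hippocampus (median 0.18), and Scn4b, the subunit of striatal and fast-spiking cells, had the largest difference, 3.49 ± 0.06, beside the striatal markers above. Among 13 tested calcium channel genes 4 were higher in cortex and 6 in hippocampus (median -0.05).

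Between the CD33 ASO and the control ASO, 1 potassium channel gene passed the threshold in 1 of 4 comparisons of tissue and duration. At 14 days in hippocampus 0 of 49 genes passed (0.0205% of all genes), and 2 had an unadjusted p under 0.05 in limma (4.08%, against 5.92% of all genes). The differences lay between -0.26 and 0.20. The smallest p belonged to Kcnab3, with -0.26 ± 0.12, Kcnip2, with 0.20 ± 0.10, and Kcnq5, with -0.18 ± 0.12 (adjusted p = 0.82, 0.83 and 0.89).

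At 28 days in hippocampus 1 of 49 genes passed, against 0.411% of all genes, or 0.164% in the upward direction. An unadjusted p under 0.05 was reached by 7 genes (14.3%, against 9.33% of all genes). The gene that passed was Kcnj16, which encodes Kir5.1, a subunit that joins another inward rectifier in astrocytes and kidney. Kcnj16 lay at 6.92, 7.43 and 7.66 over 13 control arrays and at 7.44, 7.64 and 7.92 over 13 CD33 ASO arrays. It was higher with the CD33 ASO by 0.32 ± 0.08, or 1.25-fold (limma adjusted p = 0.049). The groups overlap, and 7 of the 13 control arrays lay below the lowest CD33 ASO array. Of these, 4 control arrays at 7.02 or less lay below every array of the other 3 hippocampal groups, whose lowest was 7.28, and they stood on 4 different chips. The 28-day controls were lower than the 14-day controls by 0.29 ± 0.09, which did not pass (adjusted p = 0.22).

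Within each of the 6 hippocampal chips the 28-day CD33 ASO mean of Kcnj16 was above the control mean, by 0.12 to 0.68. The call is marginal, since the adjusted p ran from 0.037 to 0.071 over the other settings, was 0.071 with the replicate number as a block, and ran from 0.021 to 0.115 when single arrays were left out, passing in 14 of 44 such fits. Differences in Kcnj16 in the other ASO comparisons were 0.13 ± 0.10 at 14 days in hippocampus, -0.02 ± 0.09 at 14 days in cortex and 0.14 ± 0.08 at 28 days in cortex. The ASO effect on Kcnj16 at 28 days did not differ past the threshold between tissues (cortex minus hippocampus -0.18 ± 0.10, adjusted p = 0.96) or from that at 14 days in hippocampus (0.19 ± 0.12, adjusted p = 0.98). Of 9 tested astrocyte markers 0 passed at 28 days in hippocampus, with a median of -0.01 and a list mean of 10.8 to 11.2 per array in both groups. All 8 choroid plexus markers were below 0 there (median -0.68, 0 passing), as was Kcne2 at -0.72 ± 0.58 (adjusted p = 0.77), and 3 of 3 red blood cell markers were below 0 (median -0.58, 0 passing). The choroid plexus mean ran from 7.06 to 10.7 on control arrays and from 6.67 to 10.8 on CD33 ASO arrays. Of 7 tested endothelial markers 6 were below 0 and 2 passed, Vwf at -0.92 ± 0.17 and Ly6c1 at -0.28 ± 0.06 (adjusted p = 0.0021 and 0.012). The endothelial mean ran from 8.91 to 9.48 on control arrays and from 8.57 to 9.18 on CD33 ASO arrays. Of 9 tested oligodendrocyte markers 8 were below 0 (median -0.19, 0 passing). The part of these cells in the Kcnj16 difference was not tested.

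The next smallest p in hippocampus at 28 days, by the brightest probe of each gene, belonged to Kcnma1 and Kcnj9. Among the dimmer kept probes, 1 of Kcnmb4 gave 0.24 ± 0.06 (limma adjusted p = 0.064 over all kept probes). Its brightest probe gave 0.12 ± 0.05 and the remaining kept probe 0.01 ± 0.06 (adjusted p = 0.36 and 0.99 in the same fit). All 90 arrays detected each of them. Kcnma1 lay at 8.80, 9.01 and 9.31 in controls and at 8.35, 8.73 and 9.39 with the CD33 ASO, a difference of -0.27 ± 0.08 (limma adjusted p = 0.16). It passed when CD33 ASO replicate 3 was left out (adjusted p = 0.029). Kcnj9 was detected on 2 of 13 control arrays and 0 of 13 CD33 ASO arrays, so no fold is given (adjusted p = 0.22).

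In the frontal cortex at 14 days, where the target Cd33 itself did not pass, 0 of 49 genes passed (0% of all genes), with 4 under an unadjusted p of 0.05 (8.16%, against 5.05% of all genes). Kcnk4 differed by -0.33 ± 0.10, Kcnt1 by -0.23 ± 0.08 and Kcnn1 by 0.21 ± 0.08 (limma adjusted p = 0.74, 0.82 and 0.86). The other kept Kcnk4 probes, detected on 24 and 14 arrays, gave 0.22 and -0.10. At 28 days in cortex 0 of 49 passed (0.472% of all genes), again with 4 under an unadjusted p of 0.05, against 8.63% of all genes. Kcna5 had the smallest p there, at 6.82, 7.30 and 7.91 over 14 control arrays and 6.27, 6.92 and 7.24 over 14 CD33 ASO arrays. The groups overlap in part, between 6.82 and 7.24, and the difference was -0.42 ± 0.13 (adjusted p = 0.22). At 14 days in cortex Kcna5 differed by -0.05 ± 0.17, and in hippocampus no array detected it. Within each of the 6 cortical chips the 28-day difference in Kcna5 was below 0, from -0.67 to -0.28, and with chip as a fixed block the gene passed (-0.42 ± 0.11, adjusted p = 0.0498). It did not pass in the other 8 settings, with an adjusted p of up to 0.32. Nor did it pass in any of the 46 fits that left out 1 array (adjusted p from 0.093 to 0.36). Of 7 tested microglial markers 0 passed in this comparison (median -0.11). All 8 striatal markers were below 0 (median -0.14, 0 passing), with a list mean of 9.65 to 10.3 per CD33 ASO array and 9.85 to 10.3 per control array. Of 7 tested endothelial markers 5 were below 0 (median -0.17). The gene Vwf passed among them, at -0.65 ± 0.09 (adjusted p = 7.29e-06). The endothelial mean ran from 8.94 to 9.498 on control arrays and from 8.85 to 9.25 on CD33 ASO arrays. The part of these cells in the Kcna5 values was not tested. Kcnk1 differed by -0.11 ± 0.04 and Kcnj6 by -0.21 ± 0.09 (adjusted p = 0.34 and 0.49). The other kept Kcnj6 probes, detected on 33 and 77 arrays, gave 0.05 and -0.04.

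**Figure D5:**
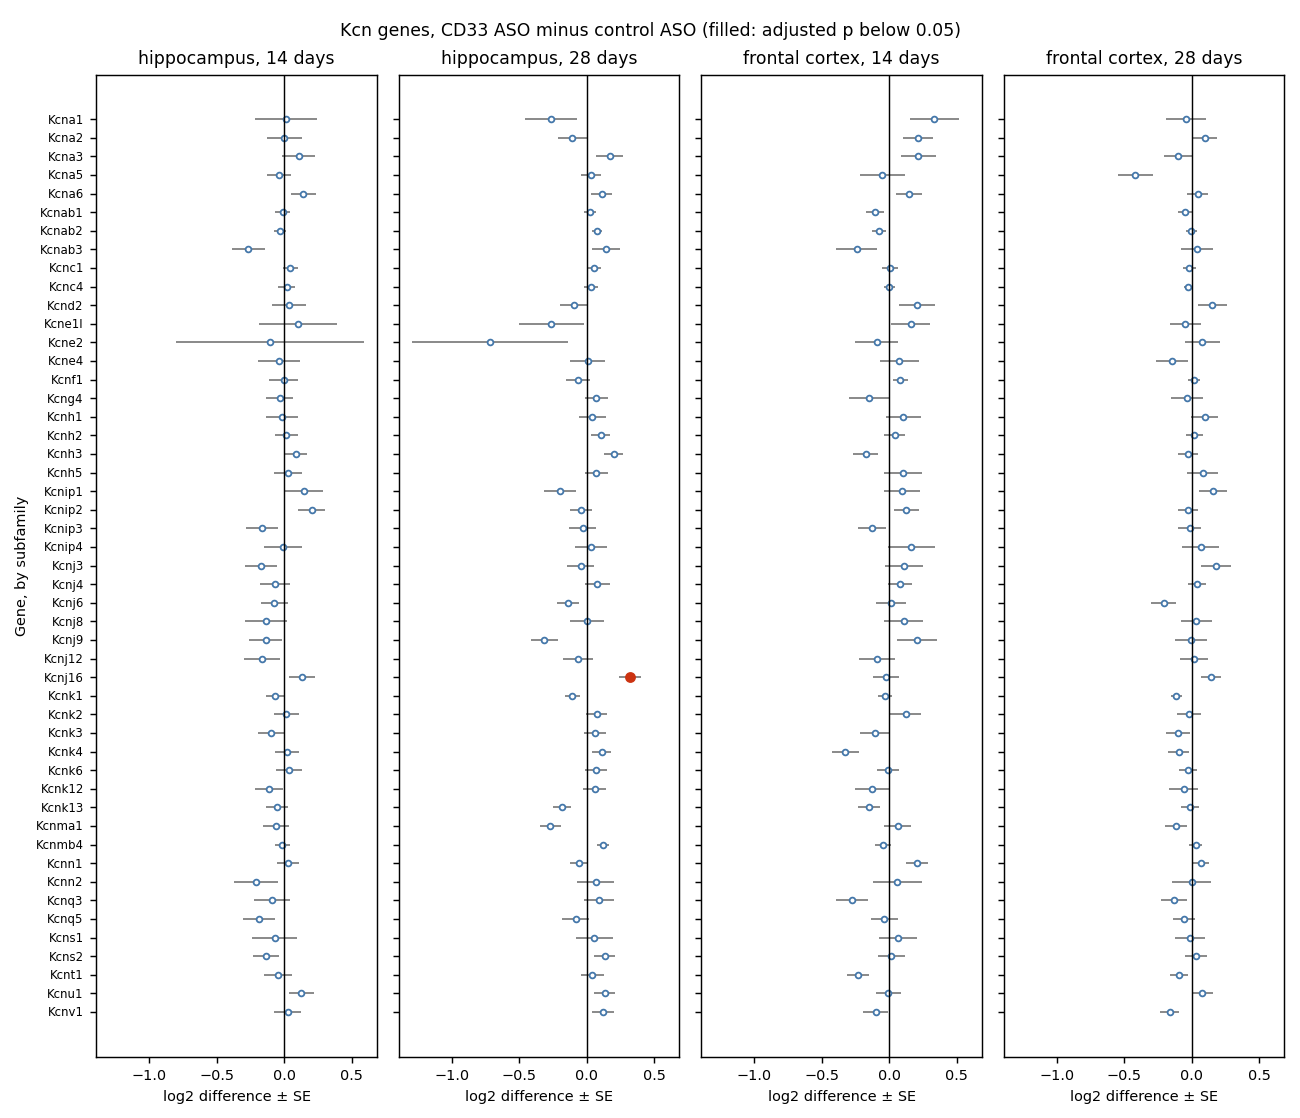
Each panel gives 1 tissue and duration, with the log2 difference of CD33 ASO minus control ASO and its SE on the horizontal axis and the 49 tested Kcn genes on the vertical axis. Kcnj16 in hippocampus at 28 days, at 0.32, is the 1 filled point (adjusted p below 0.05), and Kcne2 in hippocampus has the widest errors.

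No potassium channel gene passed between the durations of dosing. In hippocampus 0 of 49 genes passed between 28 and 14 days with the control ASO (0.0205% of all genes) and 0 with the CD33 ASO (0.0308%). In cortex 0 passed with either ASO (0% of all genes for each). An unadjusted p under 0.05 in limma was reached by 8, 6, 3 and 2 of 49 genes in the same order, against 10.9%, 9.60%, 4.57% and 5.18% of all genes. The smallest adjusted p was 0.14, for Kcnk3 in the control hippocampus, which lay at 6.53, 6.91 and 7.16 at 14 days and at 6.20, 6.56 and 6.73 at 28 days, a difference of -0.37 ± 0.09. The ranges overlap, with the 28-day arrays in the lower part. Kcnk13 differed by -0.20 ± 0.07 in the CD33 ASO hippocampus and by -0.21 ± 0.07 in the control cortex (adjusted p = 0.37 and 0.99). The other smallest p in the 4 duration comparisons were those of Kcnj16, given above, of Kcnab1 in the CD33 ASO hippocampus (0.13 ± 0.05), of Kcnn1 in the control cortex (0.19 ± 0.07), and of Kcne1l (-0.40 ± 0.13) and Kcnab3 (0.28 ± 0.13) in the CD33 ASO cortex (adjusted p = 0.38, 0.99, 0.82 and 0.95). For Kcne1l, the 14-day CD33 ASO cortex group held 1 array at 9.99, with the next at 8.85, which widens that difference. Differences of the ASO effect between tissues at each duration, or between durations in each tissue, had 0 of 49 calls and 0% of all genes in each of the 4 tests, with 2, 6, 2 and 0 channel genes under an unadjusted p of 0.05, against 4.70%, 5.09%, 4.71% and 2.68% of all genes.

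Among 46 tested genes of the 5 lists of partners, HCN, sodium and calcium channels and potassium transport, 0 passed in any of the 4 ASO comparisons or the 4 duration comparisons.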

How the data were processed

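Illumina bead arrays of 44 hippocampal and 46 frontal cortical samples were analysed. The deposited probe table gives a signal intensity per array, with background subtracted and no normalization between arrays, and a detection p-value per probe, per the file headers and the values. BeadStudio, GenomeStudio and Partek are named per the submitters' processing notes, which state neither role nor version. Another deposited table holds log2 values normalized within each tissue (medians 7.18 and 7.29) and served as an alternative.

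R 4.3.3 and limma 3.58.1 were used. The function neqc corrected the background and normalized all arrays by quantiles, with an offset of 16 that shrinks differences of dim genes, and probes detected (p under 0.01) on at least 9 arrays were kept. Each gene was read at its brightest kept probe by mean. Tests used lmFit and eBayes, 2-sided, with Benjamini-Hochberg adjustment over 9741 genes and a threshold of 0.05, in 1 model of 4 groups per tissue, and for tissue contrasts in 1 model of 90 arrays with the animal as random block (correlation 0.128). Errors are SE. The number of arrays limits the precision. The fits were checked on simulated data. Alternatives were median scaling, no background correction, the authors' values, filters, probes, chip, replicate number and left-out arrays. Full statistics were given for the 10 largest differences each way between tissues, the largest of each subfamily, and the genes passing or of smallest p in the other comparisons. The rule left out 1 symbol, not reported here. All 64 genes matched RefSeq by gene ID. The members, lists and tests were chosen with earlier results of these data known.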

Additional observations from a re-analysis of the deposited data

Results flagged for a closer look

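Single arrays far from the rest of their group were looked for in the groups of 9 arrays (those of 14 days) with Dixon's test at the 95% level, over the genes the report gives in full. Chance alone flags about 1 in 20 groups, and 8 of 128 were flagged. Kcne1l, an accessory subunit gene, was high at 9.99 in CD33 ASO cortex replicate 6, where the next array lay at 8.85. Kcnmb4 was low on the same array, at 10.5 against 10.7 for the next. Kcnj3 and Kcnk4 were low in CD33 ASO hippocampus replicate 5, at 6.04 and 7.34, with the next arrays at 6.57 and 7.70. Both arrays came from animal 33. Kcna5 was low at 5.83 in CD33 ASO cortex replicate 2, with the next array at 6.63, and was highest at 5.57 in control hippocampus replicate 6, an array that did not detect it. Kcnip1 was low at 6.01 in control hippocampus replicate 5. Kcnq5 was low at 6.02 in CD33 ASO cortex replicate 7. No cause was tested for these values.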

How the results depend on the processing

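The count of 37 channel genes passing between the tissues ranged from 34 to 41 over 11 other settings, and each gene given in full kept its direction in every setting that tested it. With the stricter filter 43 genes were tested, and Kcne2, Kcnh5 and Kcnj9 were not among them. At 28 days in hippocampus the count of 1, Kcnj16, became 0 without background correction, with the authors' log2 values, without a filter on dim probes, with all kept probes, with chip as a fixed block, with the replicate block and without the animal whose Cd33 lay in the control range in both tissues. Its difference stayed between 0.29 and 0.35 and its adjusted p in limma between 0.037 and 0.071. Leaving out single arrays gave counts from 0 to 1. At 28 days in cortex the count of 0 became 1 with chip as a fixed block, for Kcna5. The remaining ASO and duration counts stayed at 0 in every setting run. Same-numbered arrays of the ASO groups were alike in part, most in cortex. Their deviations from the group means had median correlations of 0.03 and 0.04 in hippocampus at 14 and 28 days. In cortex the medians were 0.13 and 0.20, and the lowest pair at 28 days had 0.04. In the same order 3 of 9, 5 of 13, 5 of 9 and 11 of 14 pairs correlated above 0.1. Of the arrays, 4 of 18, 7 of 26, 6 of 18 and 8 of 28 correlated best with their own number. Numbers ran in chip order within each group, and the part of chip in this likeness was not tested. The replicate block gave the same 37 genes between tissues in the same directions, and 0 in each ASO and duration comparison, so apart from Kcnj16 it changed no call. The cause of these changes was not tested. Members near the detection limit (Kcna3, Kcne4, Kcnh5, Kcnj9, Kcns1) bear differences compressed toward 0 by the offset.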

Other observations

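Kcne1l had high values in a few hippocampal arrays. The median was 8.33 in hippocampus and 8.50 in cortex, and 4 of 44 hippocampal and 1 of 46 cortical arrays exceeded 9.5, a level chosen after the values were seen. The 4 animals lay at 11.0, 10.3, 10.1 and 9.73 in hippocampus and at 9.99, 8.96, 8.62 and 8.70 in cortex in the same order. Their groups were the CD33 ASO at 14 days for animals 33 and 21 and the control ASO at 28 days for animals 48 and 40, so the high values lay in both ASO groups.

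Some neighbours on a chromosome differed in detection. Kcna1 and Kcna6, on chromosome 6, were both detected on nearly all arrays. In contrast, Kcnj6 was detected on all 90 arrays while its neighbour Kcnj15, on chromosome 16, was detected on 0. Kcnj16 was detected on all 90 and its neighbour Kcnj2, on chromosome 11, on 8. Kcna2, detected on all 90, stands on chromosome 3 between Kcna3, detected on 19 arrays, and Kcna10, detected on 0.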
